A study of Mus musculus with 21 samples.

Results

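The comparison set 6 arrays of serotonergic neurons against 9 arrays of other neurons made from engineered mouse embryonic stem cells, 15 of the 21 arrays of the series. The members were chosen by their titles. The serotonergic groups came from the NesE-Nkx2.2 line at day 10 of differentiation, 3 arrays with SHH and FGF8 and 3 with SHH and retinoic acid (RA). SHH is the ventralizing signal Sonic hedgehog, FGF8 a growth factor of the isthmus, and RA a signal of more caudal tissue. The submitters placed the FGF8 group in the rostral hindbrain and the RA group in the caudal hindbrain. The other groups were mesencephalic dopaminergic neurons of the NesE-Lmx1a line under SHH and FGF8, with 3 arrays at day 10 and 3 at day 14, and somatic motoneurons of the NesE-Olig2 line under SHH and RA, with 3 arrays at day 8. All groups shared SHH, a line named for a transcription factor and purification of post-mitotic neurons. The labels call the dopaminergic neurons immature at day 10 and mature at day 14. The labels do not spell out NesE and name 1 line per factor, so the factor and its line cannot be told apart. The 6 wild type arrays were left out. The 5 groups had equal weight on their side of the contrast, and a serotonergic core was defined as the genes that differed under both patterning factors.

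Serotonergic neurons lie in the ventral hindbrain and release serotonin, which they make from tryptophan by hydroxylation (Tph2) and decarboxylation (Ddc). Tph2 needs the cofactor tetrahydrobiopterin, whose synthesis starts with Gch1 and is held back by the regulatory protein Gchfr. The vesicular carrier Slc18a2 loads serotonin, the transporter Slc6a4 takes it back up, and the monoamine oxidases Maoa and Maob break it down. In the ventral hindbrain Nkx2-2 acts in the progenitors of these neurons, and Gata2, Gata3 and Lmx1b act in the neurons as they form.

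The values are log2 signals of Affymetrix Mouse 430 2.0 arrays, deposited relative to each probe set's median. A value of 0 is that median, 1 unit is a 2-fold difference, and neither absolute levels nor absence can be read from them. Differences are given with their standard error (SE) from limma, and calling a gene took a log2 difference of at least 1 in either direction together with an adjusted p below 0.05. Replicates are labelled as biological, without saying whether they came from separate differentiations, so the p-values measure the spread between these arrays. The hybridization control bioC fell into 2 ranges, read here as apparent batches. All 6 serotonergic arrays were in batch B, together with replicate 3 of the day 14 dopaminergic neurons and of the motoneurons, and the other 7 arrays were in batch A. The labelling controls were higher in 4 of the 6 serotonergic arrays (1.25 to 2.03; replicate 3 of the FGF8 group at -1.12 and of the RA group at 0.24) than in the 9 others (-3.83 to 0.44). Correlations between replicates, over all genes, were 0.28 to 0.64 in the FGF8 group, with replicate 3 in both weakest pairs, and 0.64 to 0.89 in the RA group. They were 0.40 to 0.58 in day 10 dopaminergic neurons, 0.65 to 0.82 at day 14 and 0.77 to 0.87 in motoneurons.

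The line genes were read first. Nkx2-2 had 0.96, 1.08 and 0.13 in the FGF8 group and 1.60, 1.85 and 1.46 in the RA group, against -2.63 to 0.20 in the 9 other arrays. Its difference was 1.76 ± 0.27 (adjusted p = 0.00181), with 1 serotonergic array, replicate 3 under FGF8, inside the range of the others. Lmx1a, the factor of the dopaminergic line, was at -1.95 to 3.23 in the serotonergic arrays, against 8.06 to 9.31 in the 6 dopaminergic arrays. Olig2 was at -0.22 to 0.45 in the serotonergic arrays, against 3.80 to 5.24 in motoneurons. It also reached 4.89 in replicate 3 of the day 10 dopaminergic neurons. The 5 markers given for the serotonergic neurons, Slc6a4, Tph2, Gchfr, Maob and Ptger3, were each higher in all 6 serotonergic arrays than in all 9 others. They belong to gene lists chosen with earlier results of these data known, so their separation is not an independent check. The same limit holds for the counts of the lists below. The serotonergic factor Fev was not analysed here.

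Over 18193 genes, 483 were called higher and 492 lower in the serotonergic groups, which is 2.65% and 2.7% of those tested, or 5.36% in all. The median difference over all genes was -0.02. Each serotonergic group was also set alone against the same 9 arrays, so that these comparisons share their other side. The FGF8 group had 245 genes higher (1.35%) and 226 lower (1.24%), 2.59% in all. The RA group had 882 higher (4.85%) and 829 lower (4.56%), 9.4% in all. Of the 483 genes called higher in the pooled contrast, 139 were called in both groups, 43 under FGF8 only, 276 under RA only and 25 in neither. Of the 492 lower genes these counts were 103, 35, 306 and 48. Which group a gene was called in does not show that the groups differ, and that difference was tested directly. The FGF8 group minus the RA group gave 259 genes higher (1.42%) and 532 lower (2.92%).

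The core asked for more than a call. A core gene was called in the same direction in the pooled contrast and in each serotonergic group alone, and all 6 serotonergic arrays lay on 1 side of all 9 others. It held 62 higher genes (0.341% of those tested) and 23 lower genes (0.126%). Ignoring the calls, all 6 arrays lay above all 9 others for 136 genes (0.748%) and below them for 89 (0.489%). Calls in each of the 6 pairs of a serotonergic and another group were made for 36 of the higher genes (0.198% of those tested) and 7 of the lower ones (0.0385%). A further 77 higher and 80 lower genes were called in all 3 contrasts but had overlapping arrays. The higher core had a median log2 difference of 2.38 and a range of 1.07 to 7.33, and 41 of its genes differed by 2 or more. The lower core had a median of -1.73 and a range of -3.06 to -1.11. Because the core was defined by these contrasts, its sizes describe the rule, and the counts below are read beside the shares of all genes. Those shares are 2.65% called higher and 2.7% called lower in the pooled contrast. The gap between the nearest serotonergic and other arrays ran from 0.02 to 4.53 in the higher core, with a median of 0.60. In the lower core it ran from 0.005 to 1.54, with a median of 0.255.

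**Figure D1:**
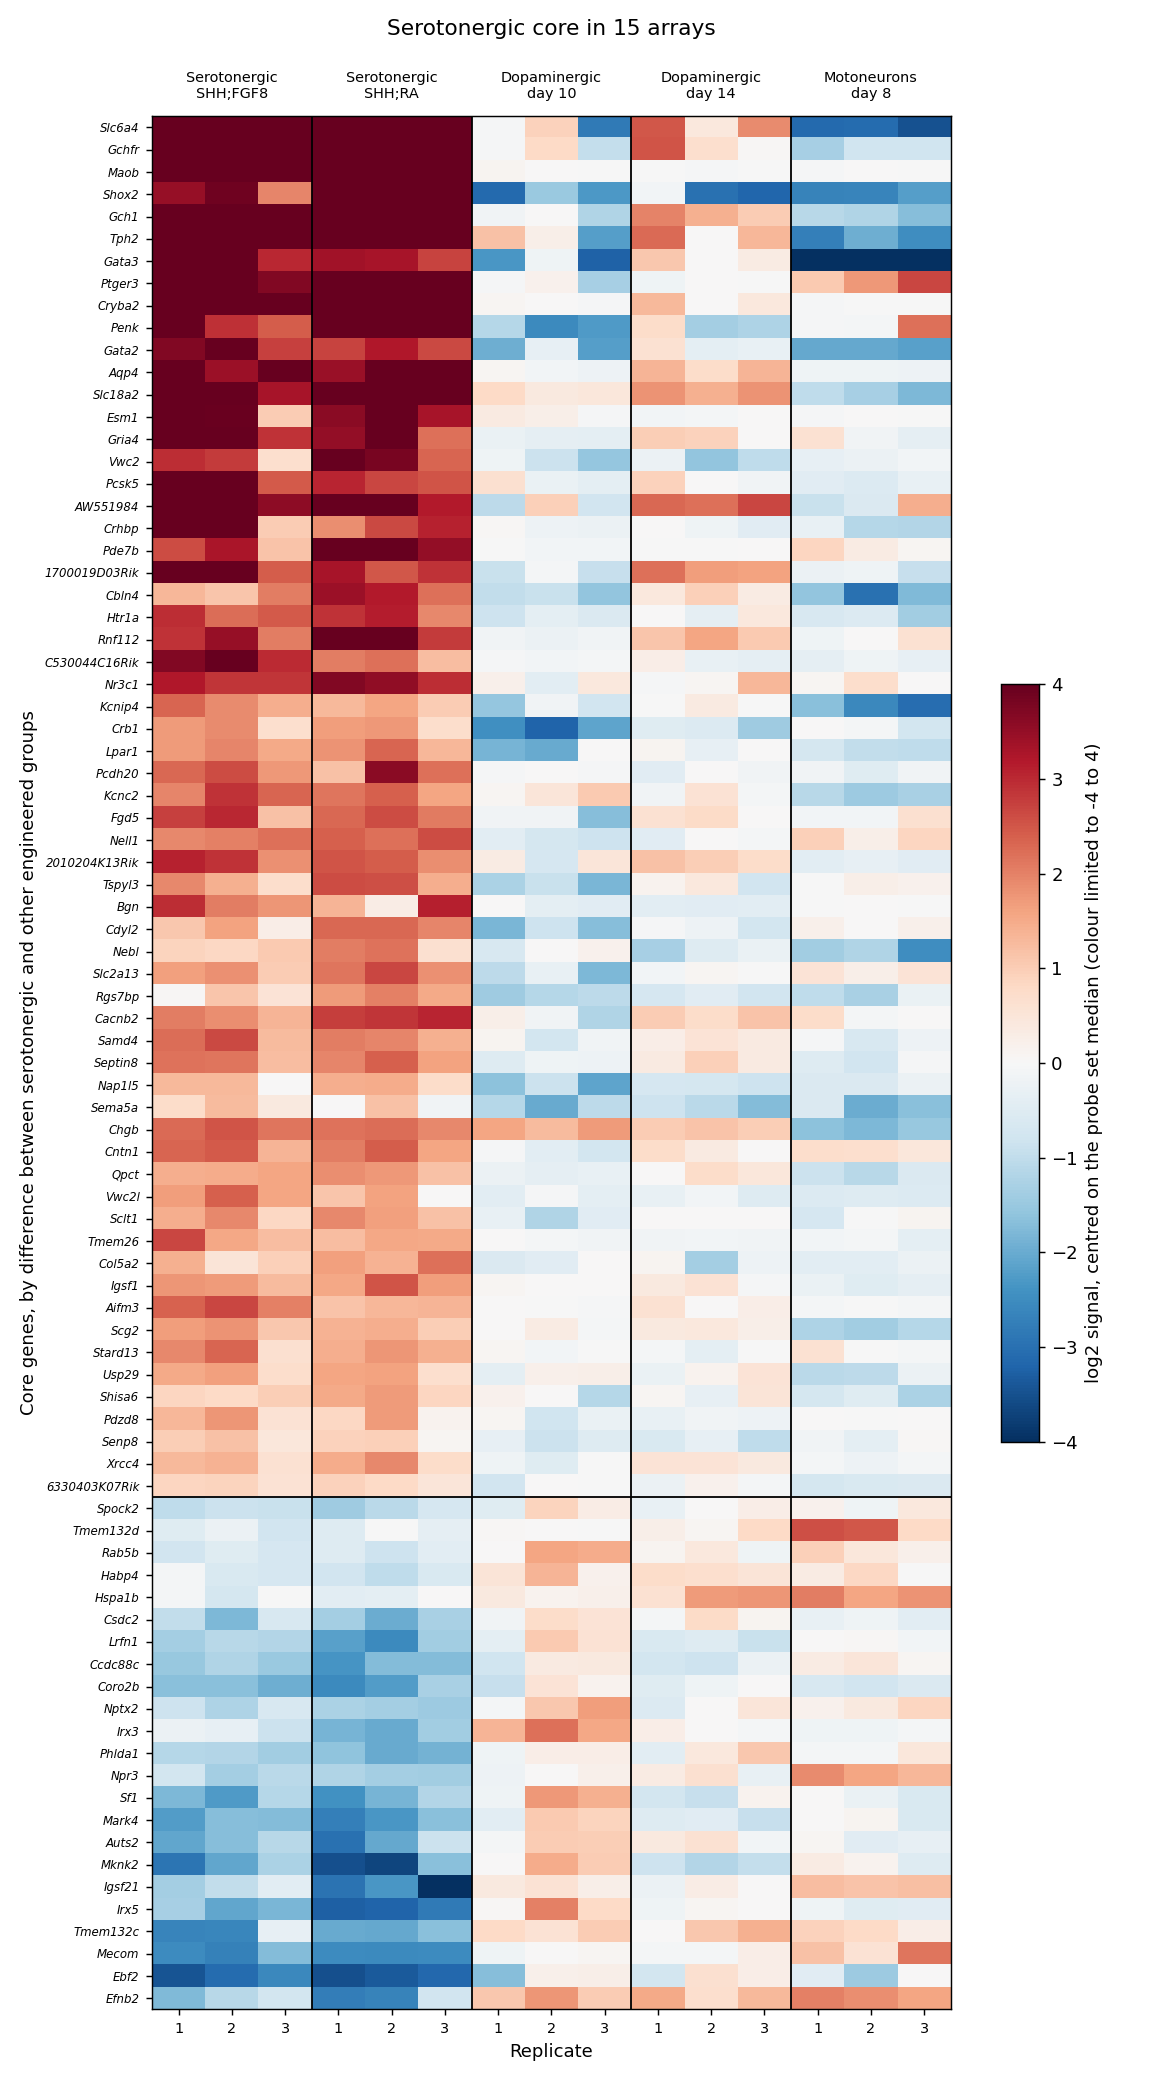
The 62 higher and 23 lower core genes (rows, by size of difference) in 15 arrays (columns, by group and replicate), coloured by the log2 signal centred on the probe set median, with colours limited to -4 to 4. The 6 serotonergic columns at the left are redder than the 9 others in the upper block and bluer in the lower one, and replicate 3 under FGF8 is paler than its neighbours in rows such as Shox2, Esm1, Vwc2 and Crhbp.

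Genes for handling serotonin itself were among the largest differences. Of 11 tested genes of synthesis, transport and breakdown, 6 were called higher and 0 lower, with a list median of 2.44, beside 2.65% called higher among all genes. The same 6 were called higher in each serotonergic group alone, and 4 of them were in the core. In bulk RNA, fewer cells of a type and less RNA per cell cannot be told apart. The plasma membrane serotonin transporter Slc6a4 had 7.39, 7.67 and 5.06 in the FGF8 group and 6.31, 6.67 and 6.33 in the RA group. It had -0.06, 0.93 and -2.82 in day 10 dopaminergic neurons, 2.48, 0.41 and 1.90 at day 14, and -3.09, -3.09 and -3.49 in motoneurons. The 6 serotonergic arrays lay 2.58 or more above the rest, and Slc6a4 had the largest difference of the core, 7.33 ± 0.59 (adjusted p = 2.79e-05).

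Tph2, which hydroxylates tryptophan, had 5.85, 6.40 and 4.48 under FGF8 and 4.32, 4.62 and 4.36 under RA, against -2.74 to 2.27 in the 9 other arrays. Its difference was 5.49 ± 0.52 (adjusted p = 8.97e-05), and motoneurons, at -2.74 to -1.95, were the lowest group. Tph1, the peripheral form of the enzyme, stayed between -0.02 and 0.40 in every array of the comparison and was not called (0.04 ± 0.05). The vesicular carrier Slc18a2 had 4.47, 4.42 and 3.29 under FGF8 and 4.11, 4.22 and 4.13 under RA. It had 0.78, 0.38 and 0.44 in day 10 dopaminergic neurons, 1.80, 1.43 and 1.79 at day 14, and -1.02, -1.32 and -1.79 in motoneurons. Dopaminergic neurons also use this carrier, and the serotonergic arrays still lay 1.5 or more above them. Its difference was 3.83 ± 0.19 (adjusted p = 5.23e-07).

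Maob had 6.80, 5.64 and 4.63 under FGF8 and 6.52, 6.52 and 6.03 under RA, while the 9 other arrays stayed between -0.04 and 0.10. This gap of 4.53 was the widest of the core, and the difference was 6.02 ± 0.25 (adjusted p = 1.79e-07). Maoa, the other oxidase, had 1.25 to 3.12 in the serotonergic arrays and -1.83 to 1.49 in the others. It was called higher (2.44 ± 0.43, adjusted p = 0.00412) but its arrays overlapped. Ddc, the decarboxylase shared with dopamine synthesis, had 3.79, 4.16 and 2.92 under FGF8 and 2.18, 2.26 and 1.5 under RA. It had 1.30, 1.2 and 0.00 in day 10 dopaminergic neurons and 2.63, 2.61 and 2.2 at day 14, and fell to between -4.50 and -2.62 in motoneurons. Its pooled difference was 2.82 ± 0.33 (adjusted p = 0.000363), while over the 6 pairs of groups it ran from -0.50 (RA group minus day 14) to 6.99. Slc18a1, Slc22a2, Aldh2 and Slc29a4 were not called, with differences of -0.91 to -0.01, although Slc29a4, a low-affinity monoamine transporter, was lower in the RA group alone (-1.51 ± 0.32, adjusted p = 0.0079).

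**Figure D2:**
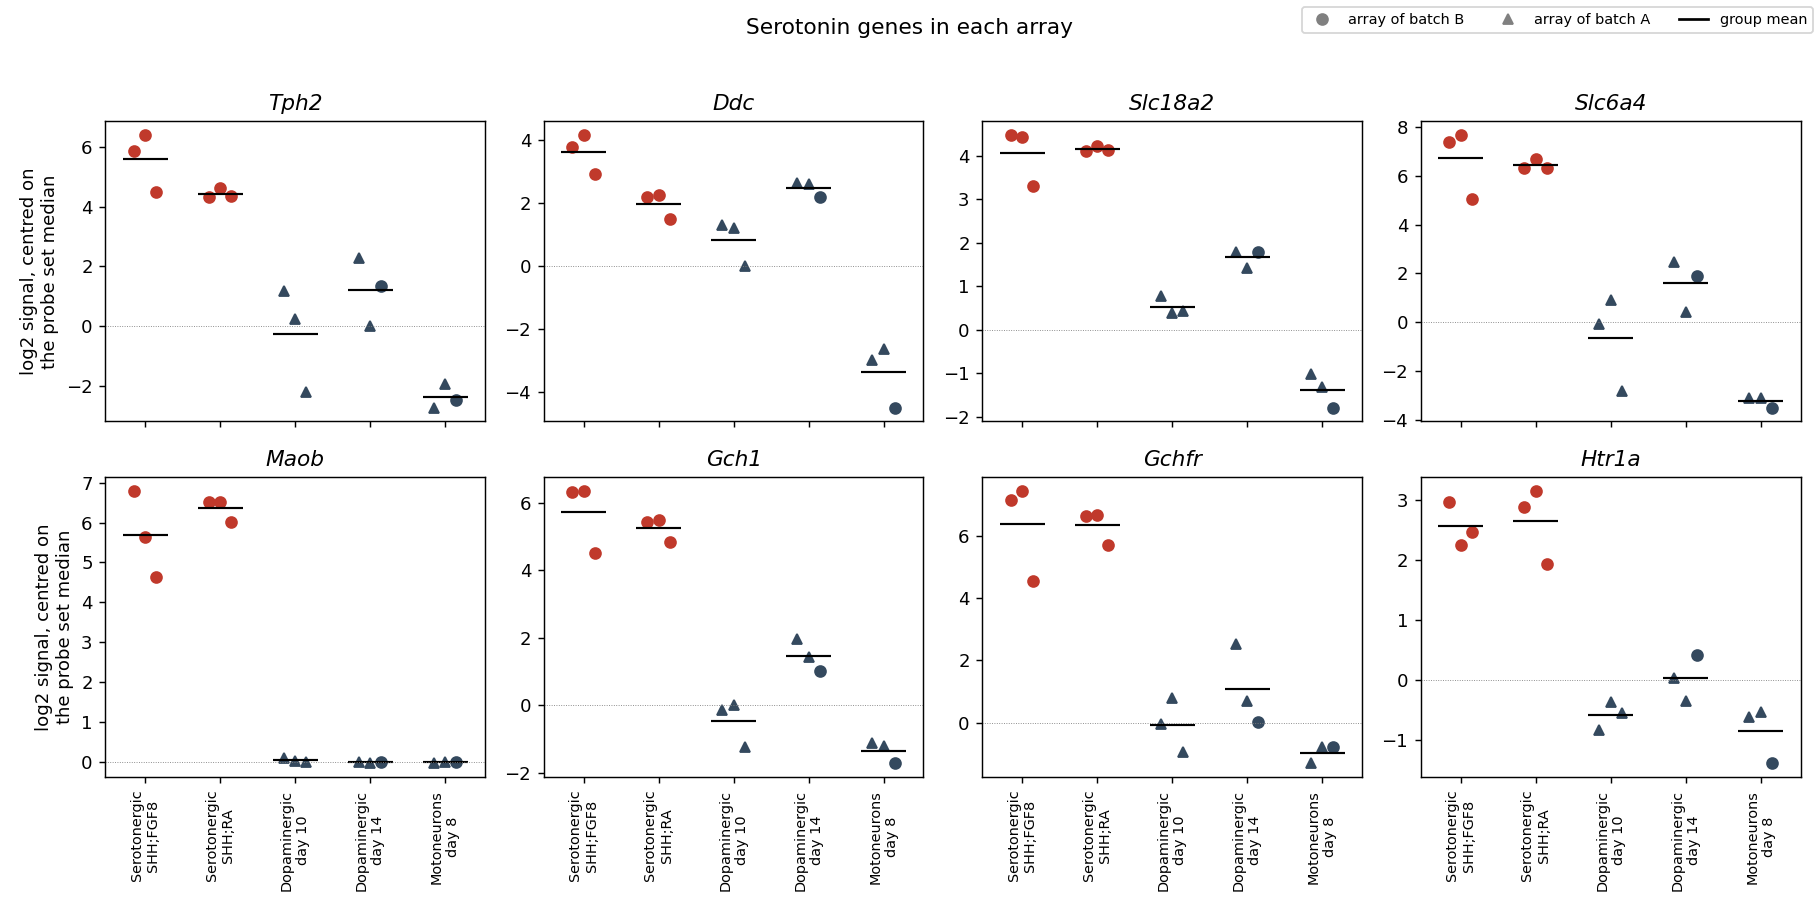
Log2 signal, centred on the probe set median, of 8 serotonin genes in each array (points), by group with the serotonergic groups at the left, circles for apparent batch B and triangles for batch A, and bars for means of 3 arrays. For 7 of the genes every serotonergic point lies above every other point, and Ddc overlaps with the dopaminergic neurons at day 14.

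The promoters of 5 core genes for serotonin handling and its cofactor are shown because their genes were higher in all 6 serotonergic arrays than in all 9 others. They are RefSeq windows of 300 bases in build GRCm38.p6, from 250 bases before the start to 50 after it, and Maob is not shown. Each is written 5′ to 3′ on the strand of its gene, with capitals on matches, on both strands, to the GATA word, whose forms are known to be bound by GATA factors. Its forms on the forward strand begin with A or T, go on with GATA and end with A or G. The windows are at chr11:76998347-76998646 (plus strand), chr10:115184973-115185272 (minus strand), chr19:59260628-59260927 (plus strand), chr14:47189364-47189663 (minus strand) and chr2:119167538-119167837 (plus strand).
Slc6a4: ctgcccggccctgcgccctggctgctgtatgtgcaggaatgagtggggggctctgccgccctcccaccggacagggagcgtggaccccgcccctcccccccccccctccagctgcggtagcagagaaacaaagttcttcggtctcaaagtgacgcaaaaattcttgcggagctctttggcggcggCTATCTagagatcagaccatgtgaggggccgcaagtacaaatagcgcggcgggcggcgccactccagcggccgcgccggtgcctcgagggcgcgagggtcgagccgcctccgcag
Tph2: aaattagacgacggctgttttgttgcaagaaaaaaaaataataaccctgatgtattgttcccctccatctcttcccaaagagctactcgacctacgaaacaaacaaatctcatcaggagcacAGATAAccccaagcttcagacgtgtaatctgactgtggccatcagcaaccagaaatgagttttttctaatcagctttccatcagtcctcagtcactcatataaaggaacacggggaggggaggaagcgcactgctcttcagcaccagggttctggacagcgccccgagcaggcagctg
Slc18a2: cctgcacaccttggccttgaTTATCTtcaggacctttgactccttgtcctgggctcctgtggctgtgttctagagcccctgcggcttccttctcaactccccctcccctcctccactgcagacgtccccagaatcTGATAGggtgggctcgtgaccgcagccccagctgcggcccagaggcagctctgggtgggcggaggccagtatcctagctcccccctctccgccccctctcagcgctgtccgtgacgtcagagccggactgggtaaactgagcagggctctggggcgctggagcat
Gch1: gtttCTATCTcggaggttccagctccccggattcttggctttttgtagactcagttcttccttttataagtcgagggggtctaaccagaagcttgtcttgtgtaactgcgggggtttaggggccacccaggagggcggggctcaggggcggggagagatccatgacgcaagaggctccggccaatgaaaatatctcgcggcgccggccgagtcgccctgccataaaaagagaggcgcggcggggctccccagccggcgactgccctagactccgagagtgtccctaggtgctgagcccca
Gchfr: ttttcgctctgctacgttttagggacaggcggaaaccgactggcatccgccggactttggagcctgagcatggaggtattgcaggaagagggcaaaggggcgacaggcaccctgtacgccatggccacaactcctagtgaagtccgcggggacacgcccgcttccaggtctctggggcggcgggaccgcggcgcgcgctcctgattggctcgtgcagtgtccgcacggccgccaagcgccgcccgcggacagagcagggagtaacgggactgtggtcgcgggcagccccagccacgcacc

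Slc6a4 held 1 such word 65 bases before the start, Tph2 held 1 at 128 bases and Gch1 held 1 at 246 bases. Slc18a2 held 2, at 230 and 115 bases before the start, and Gchfr none in this window. Of the 53 higher core genes with a window, 19 held at least 1 GATA word (35.8%). The share was 2 of 13 in the lower core (15.4%) and 3224 of 14452 over all tested genes with a window (22.3%). Other words were also searched on both strands. The homeodomain word TAATTA was in 3.77% of the higher core windows, 0 of the 13 lower core windows and 3.29% of all. The ETS word CCGGAA was in 5.66% of the higher core, 7.69% of the lower core and 22.0% of all. CCACTT, a word of NK2 factors, was in 5.66% of the higher core, 23.1% of the lower core and 16.4% of all. These shares describe letters in a window, without a test.

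The cofactor pathway followed in part. Of 7 tested tetrahydrobiopterin genes 4 were called higher and 1 lower (list median 1.17). Gch1, the first enzyme of the pathway, had 6.33, 6.37 and 4.50 under FGF8 and 5.45, 5.51 and 4.86 under RA. It had -0.15, 0.00 and -1.22 in day 10 dopaminergic neurons, 1.02 to 1.98 at day 14 and -1.72 to -1.11 in motoneurons, and differed by 5.61 ± 0.32 (adjusted p = 1.99e-06). Its 2 probe sets gave 5.42 and 5.61. Dopamine synthesis needs the same cofactor, and the smallest of the 6 group pairs, RA minus day 14 dopaminergic, was 3.79.

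Gchfr, the feedback regulator of Gch1, had 7.16, 7.46 and 4.55 under FGF8 and 6.66, 6.66 and 5.71 under RA, against -1.32 to 2.53 in the others. It differed by 6.35 ± 0.52 (adjusted p = 2.93e-05), the second largest difference of the core. The next enzyme, Pts, differed by 1.17 ± 0.14 (adjusted p = 0.000385), and its other probe set by -0.04. Pcbd1, which recycles the cofactor, differed by 1.71 ± 0.24 (adjusted p = 0.00115), but its serotonergic arrays (0.00 to 1.23) lay below or among the motoneurons (0.81 to 1.31). Spr, which completes the synthesis, was lower (-1.37 ± 0.39, adjusted p = 0.0348), and this call held without only 4 of the 15 arrays in turn. Qdpr had a difference of 0.67 and Pcbd2 of -0.15, both under the fold threshold.

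Among 9 tested transcription factors of serotonergic neurons 5 were called higher and 1 lower. The zinc finger factor Gata3 had 4.31, 4.32 and 3.01 under FGF8 and 3.37, 3.29 and 2.70 under RA. It had -2.33, -0.17 and -3.24 in day 10 dopaminergic neurons, 1.07, 0.00 and 0.34 at day 14, and -4.67, -4.55 and -4.01 in motoneurons. Gata3 differed by 5.45 ± 0.42 (adjusted p = 2.03e-05) with no overlap. Gata2 had 3.69, 4.46 and 2.74 under FGF8 and 2.70, 3.21 and 2.63 under RA, against -2.19 to 0.61 in the others, a difference of 4.44 ± 0.33 (adjusted p = 1.42e-05). Both GATA genes are also used by V2b interneurons. Tal1, their partner in those cells, had 1.36 to 3.55 under FGF8 and -0.39 to 1.38 under RA, and its call (1.93 ± 0.55, adjusted p = 0.0356) held without 4 of the 15 arrays in turn.

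Lmx1b, which serotonergic neurons need, had 1.43, 2.06 and -0.60 under FGF8 and 0.50, 0.93 and 1.27 under RA. It had 0.48, 1.73 and 0.71 in day 10 dopaminergic neurons and 0.00 to 0.26 at day 14, and fell to between -5.24 and -4.94 in motoneurons. Its call (2.25 ± 0.36, adjusted p = 0.00232) therefore rested on the motoneurons, and the difference was -0.04 against the day 10 dopaminergic neurons alone. Nkx6-1, a progenitor factor, was similar, at 1.5 ± 0.25 in the pooled contrast and -0.02 against day 10 dopaminergic neurons alone. The other probe set of Lmx1b had a pooled difference of -0.008. Otp, a homeodomain factor, was lower (-1.76 ± 0.53, adjusted p = 0.0441), at -0.91 to 0.90 under FGF8 and -2.42 to -2.40 under RA. Foxa2 (0.39 ± 0.28) and Insm1 (0.59 ± 0.25) were not called.

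Of 13 serotonin receptor genes 2 were called higher, and the list median was -0.01. The autoreceptor Htr1a had 2.97, 2.24 and 2.46 under FGF8 and 2.88, 3.15 and 1.92 under RA, against -1.40 to 0.42 in the 9 others. It differed by 3.08 ± 0.22 (adjusted p = 1.15e-05), and its other probe set by 0.77. Htr1b, the terminal autoreceptor, had 3.01 to 3.12 under FGF8 and 3.54 to 4.68 under RA, but also 1.59 to 3.72 in day 10 dopaminergic neurons (2.27 ± 0.32, adjusted p = 0.00107). Its other probe set differed by -0.05. The other 11 receptor genes had differences of -0.07 to 0.47, and most stayed near 0 in all arrays, which does not tell a constant level from absence. Single arrays stood out, with Htr3a at 2.58 and Htr2c at 1.97 in replicate 3 under FGF8.

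Of 16 other genes known from serotonergic neurons, 5 were called higher and 1 lower. Ptger3, a prostaglandin E receptor, had 6.15, 6.99 and 3.71 under FGF8 and 6.36, 6.43 and 4.85 under RA, against -1.33 to 2.67 in the others, whose highest values were those of motoneurons. It differed by 5.29 ± 0.50 (adjusted p = 8.57e-05), and its other probe set by 1.08. Penk, the enkephalin precursor, had 4.18, 2.91 and 2.44 under FGF8 and 5.54, 5.10 and 5.11 under RA, against -2.54 to 2.19 in the others. Its difference was 4.85 ± 0.47 (adjusted p = 0.000102), and the gap to the nearest motoneuron array was 0.24.

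Tac1, the substance P precursor that some caudal serotonergic neurons make, had 2.51, 0.01 and 1.57 under FGF8 and 5.85, 4.64 and 2.73 under RA, while the others lay between -0.50 and 0.00. The FGF8 group minus the RA group gave -3.05 ± 0.71 (adjusted p = 0.0262), so Tac1 was lower under FGF8. Pdyn, a further opioid precursor, had -0.02 to 0.23 under FGF8 and 1.65 to 2.29 under RA, a difference of -1.83 ± 0.13 (adjusted p = 2.4e-05). The adrenergic receptor Adra1b had 3.77, 2.78 and -0.13 under FGF8 and 2.35 to 2.91 under RA, so that replicate 3 under FGF8 lay among the others (-0.19 to 0.01). The adhesion gene Cdh13 was higher (1.78 ± 0.30) and the receptor kinase Met lower (-2.88 ± 0.42, adjusted p = 0.00145), both with overlapping arrays. Crhr1, Crhr2, Galr1, Hcrtr1, Hcrtr2 and Trh were not called, with differences of -0.22 to 0.39.

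The rest of the higher core reached beyond serotonin. Shox2, a homeodomain factor, had 3.47, 3.90 and 1.96 under FGF8 and 4.23, 4.31 and 4.11 under RA, against -3.17 to -0.11 in the others. It differed by 5.96 ± 0.49 (adjusted p = 2.9e-05), the fourth largest difference of the core. Cryba2, a crystallin gene, had 4.0 to 6.24 in the serotonergic arrays and -0.06 to 1.30 in the others (4.87 ± 0.30, adjusted p = 3.51e-06). The secreted proteoglycan Esm1 had 4.72, 3.95 and 1.03 under FGF8 and 3.61, 5.06 and 3.29 under RA, against -0.11 to 0.37 (3.58 ± 0.49, adjusted p = 0.000923). The AMPA receptor subunit Gria4 had 2.21 to 4.87 in the serotonergic arrays and -0.38 to 0.98 in the others (3.53 ± 0.36, adjusted p = 0.000149), and its 3 probe sets gave 2.83 to 3.53.

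The core genes of the next sentences were picked from the 62 after their values were seen. The granins Chgb and Scg2, which fill dense core vesicles, differed by 1.90 ± 0.08 (adjusted p = 2.21e-07) and 1.68 ± 0.12 (adjusted p = 1.12e-05). Chgb had 1.93 to 2.51 in the serotonergic arrays and -1.79 to 1.69 in the others. The convertase Pcsk5 differed by 3.36, the glutaminyl cyclase Qpct by 1.81 and Crhbp, which binds corticotropin-releasing hormone, by 3.31. Nr3c1, the glucocorticoid receptor, had 2.85 to 3.69 in the serotonergic arrays and -0.41 to 1.32 in the others, with a difference of 2.92 ± 0.23 (adjusted p = 2.63e-05). Among channel genes, the potassium channel Kcnc2 differed by 2.43, the channel partner Kcnip4 by 2.64 and the calcium channel subunit Cacnb2 by 2.05. Among genes of cell contact, the synapse organizer Cbln4 differed by 3.11, the protocadherin Pcdh20 by 2.43, Sema5a by 1.92 and the contactin Cntn1 by 1.84.

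Other lists put these in proportion, beside 2.65% of all genes called higher and 2.7% called lower. Of 22 ionotropic receptor genes 5 were called higher and 3 lower. The GABA receptor subunit Gabrb1 (3.89 ± 0.42, adjusted p = 0.000216) was called in both groups, but its values in day 14 dopaminergic neurons, 2.38 to 3.69, reached those of the serotonergic arrays, 3.50 to 5.57. Its 4 probe sets gave 0.02 to 3.89. The nicotinic subunits Chrna3 (-2.33 ± 0.24) and Chrnb4 (-2.49 ± 0.30) were lower, though dopaminergic neurons at day 14 were as low in both (-3.51 to -1.30). Of 18 potassium channel genes 4 were called higher and 0 lower, among them Kcnj3 (1.65 ± 0.20, adjusted p = 0.000495), whose channel is gated by G proteins coupled to receptors such as Htr1a. Of 19 synaptic vesicle genes 2 were called higher and 1 lower, with a list median of -0.11.

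The smallest differences of the higher core were those of Shisa6 (1.48), Pdzd8 (1.24), Senp8 (1.23), Xrcc4 (1.19) and 6330403K07Rik (1.07). In Pdzd8 the serotonergic arrays ran from 0.14 to 1.78 and the others from -0.80 to 0.07. Just outside the rule stood genes such as Ddc, Maoa and Gabrb1, called 3 times but with overlapping arrays. Of the 39 higher core genes with more than 1 probe set, 16 had all their probe sets at 1 or more in the same direction. In the lower core this held for 4 of 18.

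The 23 lower core genes lay in smaller steps, and the 10 with the largest differences are named here by that rank. Efnb2, a membrane-bound ephrin ligand in axon guidance, had -1.78, -1.12 and -0.73 under FGF8 and -2.76, -2.68 and -0.77 under RA, against 0.68 to 2.00 in the 9 others. It differed by -3.06 ± 0.31 (adjusted p = 0.000145), and its 4 probe sets gave -3.06 to -1.99. Ebf2, a helix-loop-helix factor of young neurons, had -3.52 to -2.58 in the serotonergic arrays and -1.71 to 0.64 in the others (-2.86 ± 0.36, adjusted p = 0.000543). The zinc finger factor Mecom had -2.70 to -1.73 in the serotonergic arrays and -0.19 to 2.15 in the others (-2.85 ± 0.22, adjusted p = 1.95e-05), and its 3 probe sets ran from -2.85 to -0.02.

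Members of the Iroquois family of patterning factors were among them. Irx5 had -1.34, -2.09 and -1.83 under FGF8 and -3.26, -3.21 and -2.84 under RA, against -0.50 to 2.00 in the others (-2.61 ± 0.25, adjusted p = 8.57e-05). Irx3, named for its difference between the serotonergic groups, had -0.25, -0.34 and -0.87 under FGF8 and -1.86, -2.02 and -1.39 under RA, against -0.18 to 2.2 in the others (-1.66 ± 0.15, adjusted p = 6.62e-05). For both genes the highest value was that of a day 10 dopaminergic array. The immunoglobulin superfamily gene Igsf21 had -1.37, -0.97 and -0.42 under FGF8 and -2.96, -2.33 and -4.03 under RA, against -0.25 to 1.25 in the others. The transmembrane gene Tmem132c (-2.65), the kinases Mknk2 (-2.46) and Mark4 (-1.97), Auts2 (-2.03) and the splicing factor Sf1 (-1.85) completed the 10.

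The difference between the patterning factors was tested within the core by the FGF8 group minus the RA group. Of the 62 higher genes, 48 differed by less than 1 between the groups and 4 were called, beside 4.35% of all genes called either way. The median of this difference was -0.01 and its range -2.07 to 1.96. A missed call does not show equal levels. Core genes had to be called in the same direction in both groups, so these counts partly follow from the rule. The share of all genes that differed by less than 1 was not counted. For Slc6a4 the difference was 0.27 ± 0.92, for Tph2 1.15 ± 0.81, for Gchfr 0.04 ± 0.81, for Maob -0.67 ± 0.39 and for Slc18a2 -0.09 ± 0.29, none of them called (SE). Shox2 (-1.10 ± 0.75) and Penk (-2.07 ± 0.73) were also not called.

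The 4 called genes split evenly by direction. The phosphodiesterase Pde7b was lower under FGF8, at 2.60, 3.26 and 1.15 against 4.46, 5.10 and 3.51 under RA (-2.02 ± 0.49, adjusted p = 0.0318). Rgs7bp, which anchors regulators of G protein signalling, was also lower under FGF8, at 0.04, 1.10 and 0.56 against 1.69, 2.02 and 1.53 under RA (-1.18 ± 0.29, adjusted p = 0.0332). C530044C16Rik was higher under FGF8, at 3.69, 4.68 and 2.98 against 2.03, 2.21 and 1.24 under RA (1.96 ± 0.37, adjusted p = 0.0108). Aifm3 was higher under FGF8 too, at 2.35, 2.69 and 2.03 against 1.15, 1.33 and 1.35 under RA (1.08 ± 0.16, adjusted p = 0.00352). Of the 23 lower genes 20 differed by less than 1, and Igsf21 (2.19 ± 0.36, adjusted p = 0.00536) and Irx3 (1.27 ± 0.24, adjusted p = 0.0099) were called, both less reduced under FGF8.

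**Figure D3:**
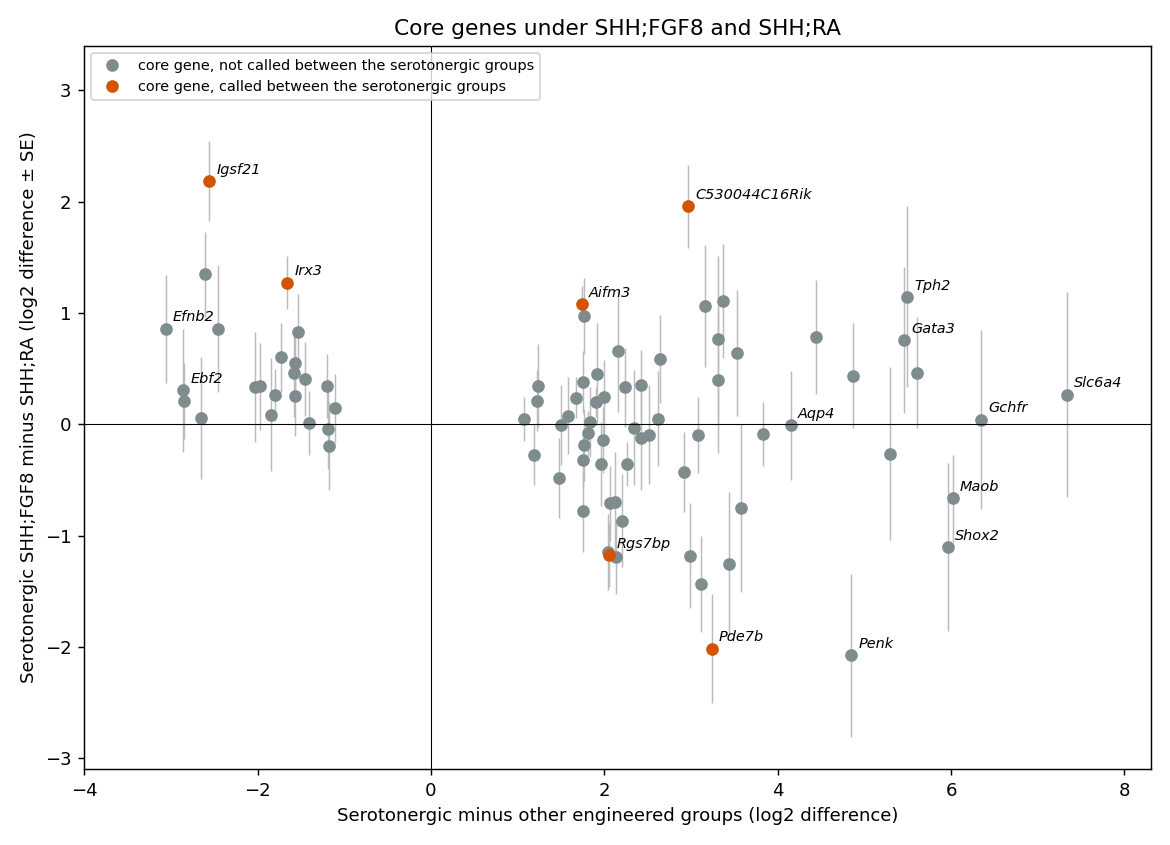
Each of the 85 core genes by its pooled log2 difference, serotonergic minus other groups (x axis), and its log2 difference between the serotonergic groups, FGF8 minus RA, with the SE as bars (y axis). Most genes lie near 0 on the y axis, and the 6 genes called there are orange.

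Outside the core the serotonergic groups differed in some of the Hox genes, which mark position along the body axis. Over all genes 2.92% were called lower under FGF8 than under RA. Of 7 Hox genes of paralog groups 1 to 3, 1 was called lower under FGF8 than under RA, and of 10 of groups 6 to 9, 2 were. Of 6 of groups 4 and 5, 5 were lower under FGF8 than under RA by the direct test, among them Hoxc4 (-6.05 ± 0.66, adjusted p = 0.000483) and Hoxb4 (-4.63 ± 0.26, adjusted p = 3.01e-06). Hoxb4 had -0.64 to 0.03 under FGF8 and 4.06 to 4.92 under RA, with 5.01 to 5.44 in motoneurons and -0.64 to -0.07 in dopaminergic neurons. The midbrain and rostral hindbrain factor En1 was higher under FGF8 (0.60 to 2.05) than under RA (-2.31 to -1.29). Isl1, a LIM factor of motoneurons and other cells, had -0.23, 1.26 and 0.67 under FGF8 and -6.84, -7.04 and -6.01 under RA (7.20 ± 0.44, adjusted p = 6.55e-06). Tbx20, a factor of visceral motoneurons, also differed, at 1.69 to 3.25 under FGF8 and -3.19 to -2.86 under RA (5.37 ± 0.94, adjusted p = 0.0074). The pooled call of Tbx20 (3.16) therefore rested on the FGF8 group.

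Lists of the other engineered fates held more lower than higher calls, often through 1 group. Over all genes 2.7% were called lower and 2.65% higher. Of 10 somatic motor factors 6 were called lower and 0 higher. Mnx1 (-2.68 ± 0.05, adjusted p = 1.2e-10) and Lhx3 (-2.67 ± 0.04, adjusted p = 1.17e-11) were at 7.76 to 8.16 in motoneurons and between -0.05 and 0.07 in the other 12 arrays of the comparison. Of 12 midbrain dopaminergic factors 4 were called lower, and of 10 genes of the dopamine phenotype 3 lower and 1 higher. Th, which makes the dopamine precursor, had 2.38, -1.55 and 3.43 under FGF8 and -1.71 to -1.14 under RA, against 3.49 to 6.41 in dopaminergic neurons and -1.54 to 0.01 in motoneurons (-3.13 ± 0.66, adjusted p = 0.0091). The dopamine transporter Slc6a3 was at 3.22 to 5.39 in dopaminergic neurons at day 14 and between -0.05 and 0.13 in the other 12 arrays of the comparison. Neurog2, a proneural factor, was lower in both serotonergic groups (-3.53 ± 0.44, adjusted p = 0.000564), with 1 serotonergic array, replicate 1 under FGF8 at 0.31, inside the range of the others.

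Retinoid and posterior genes behaved likewise. Of 8 RA response genes 5 were called lower, and the RA serotonergic group and the motoneurons both received RA. The RA-degrading enzymes Cyp26a1 (-2.65 ± 0.16) and Cyp26b1 (-2.18 ± 0.14) were at 7.18 to 8.58 in motoneurons and between -1.52 and 0.13 in the other 12 arrays of the comparison. In the wild type FGF8 arrays Cyp26b1 had 4.76, 2.33 and 4.31. Of 10 Hox genes of groups 6 to 9, 6 were called lower, and Hoxb9 was at 7.71 to 8.51 in motoneurons and between -0.14 and 0.97 in the other 12 arrays of the comparison. The wild type arrays, outside the comparison, had 1.36 to 8.32. Of 27 axon guidance genes 7 were called lower and 2 higher, and Efnb2 was the one in the core. The attractant and repellent ligands Sema3c (-1.71) and Slit2 (-1.54) were lower with overlapping arrays.

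**Figure D4:**
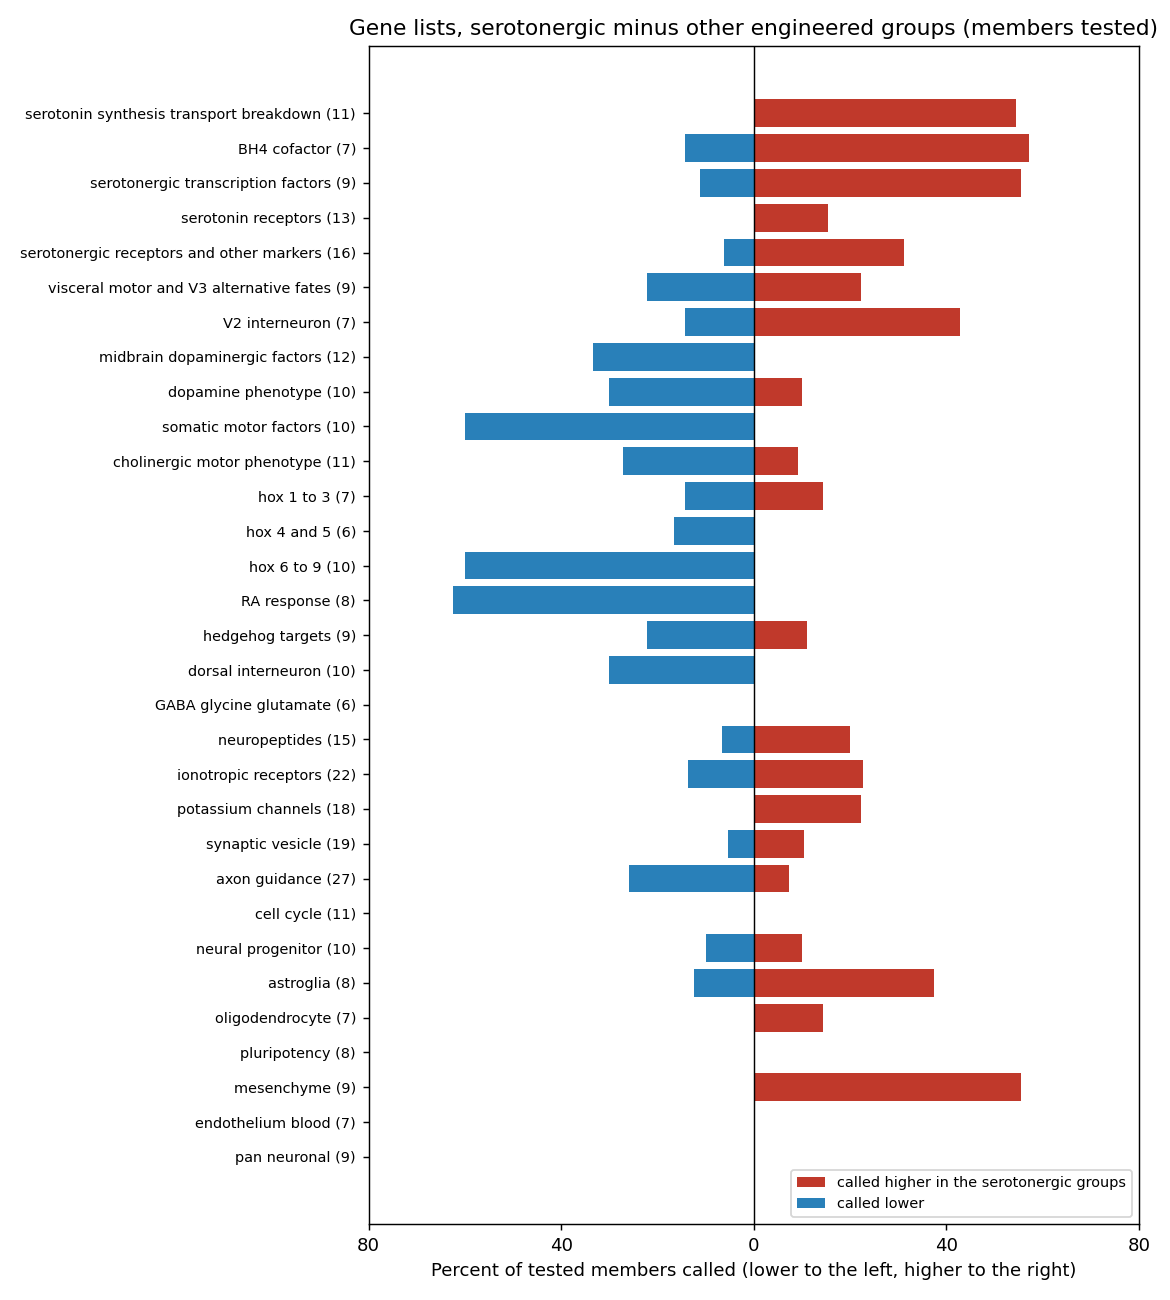
Percent of the tested genes of each of 31 lists called lower (bars to the left) and higher (bars to the right) in the serotonergic groups against the other engineered groups. The lists of serotonin handling, cofactor genes, serotonergic factors and mesenchyme have the longest bars to the right, and those of RA response, somatic motor factors and Hox groups 6 to 9 the longest to the left.

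Markers of other cell types moved with part of the contrast. Of 9 mesenchyme genes 5 were called higher (Col1a2 3.68 ± 0.65, Dcn 3.16 ± 0.56, Lum 3.13 ± 0.61, Col3a1 1.63 ± 0.27 and Pdgfrb 1.38 ± 0.33), and Col1a1, Acta2, Tagln and Twist1 were not called. The mean of the list over its genes was -0.73 to 1.79 in the serotonergic arrays and -1.69 to 0.99 in the others. The lowest probe set difference was -0.02 for Col1a2 and -0.04 for Dcn. Of 8 astroglial genes 3 were called higher and 1 lower. The water channel gene Aqp4 was in the core, at 3.41 to 5.49 in the serotonergic arrays and -0.21 to 1.36 in the others (4.15 ± 0.32, adjusted p = 1.72e-05), and Aldh1l1 (2.66 ± 0.38, adjusted p = 0.0013) and Aldoc (1.04 ± 0.26, adjusted p = 0.0215) were higher with overlapping arrays. The glutamate transporter Slc1a2 was lower (-1.07 ± 0.31, adjusted p = 0.0386). Gfap and S100b stayed between -0.07 and 0.13 in all 15 arrays, which does not tell a constant level from absence, and Slc1a3 (-0.10) and Gja1 (0.15) were not called. The mean of the astroglial list was -0.09 to 1.27 in the serotonergic arrays and -0.57 to 0.77 in the others. Of 7 oligodendrocyte genes 1, Pdgfra, was called higher, with a list mean of -0.11 to 0.99 in the serotonergic arrays and -0.63 to 0.62 in the others. None of the 11 cell cycle, 8 pluripotency, 7 endothelial and blood or 9 pan-neuronal genes was called, with limma counting 5095 genes (28.0%) at an unadjusted p under 0.05 over all genes. That share has no adjustment and no fold limit, and by the call rule 5.36% of all genes were called in the pooled contrast. With lists this short, 0 calls do not show that these genes were unchanged. The cell cycle list averaged 0.74 in day 10 and -1.225 in day 14 dopaminergic neurons, and 0.29 in motoneurons. It averaged -0.27 in the FGF8 and -0.08 in the RA serotonergic group, so the pooled contrast averaged opposite differences. In the RA group alone 2 pan-neuronal genes and 1 pluripotency gene were called lower and 0 higher, beside 4.56% of all genes lower there. The part of these other cell types in the core was not tested.

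The apparent batch moved with the contrast, since all 6 serotonergic arrays lay in batch B. With batch as a block 51 of the 62 higher and 14 of the 23 lower core genes kept the pooled call. All 85 kept their sign. Under the whole core rule, with calls in each serotonergic group as well, 33 of the 62 and 5 of the 23 remained. Within batch B alone, with 2 arrays on the other side, most higher and most lower core genes lost the pooled call. Those 2 arrays were 1 of day 14 dopaminergic neurons and 1 of motoneurons. All 85 kept their sign there, but this was fixed in advance. The core rule had already set the 6 serotonergic arrays on 1 side of the 2 others in this batch B fit. In that fit the difference of Slc6a4 was 7.37 (adjusted p = 0.0195), of Maob 6.03 (adjusted p = 0.0179), of Tph2 5.58 (adjusted p = 0.0169) and of Gchfr 6.75 (adjusted p = 0.0382). Ptger3 differed by 4.42 (adjusted p = 0.133) and Aqp4 by 3.87 (adjusted p = 0.0887) and were not called there. Against day 10 dopaminergic neurons alone, 56 higher and 21 lower core genes kept the pooled call. This comparison matches the day, but not the batch nor, for the RA group, the patterning factor. The core rule had already set the 6 serotonergic arrays on 1 side of these day 10 arrays. The signs were therefore fixed in advance there too, and the calls partly follow from the rule. Under the whole core rule 38 of the 62 and 5 of the 23 remained there. All 5 mesenchyme calls were lost with the block (adjusted p of 0.0789 to 0.199), while their differences there were 2.85 for Col1a2, 2.91 for Dcn, 2.95 for Lum, 1.77 for Col3a1 and 1.80 for Pdgfrb. Other calls lost with the block included those of Nkx2-2 (1.81, adjusted p = 0.0716), Lmx1b (2.29, adjusted p = 0.0865) and Esm1 (3.54, adjusted p = 0.0563).

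**Figure D5:**
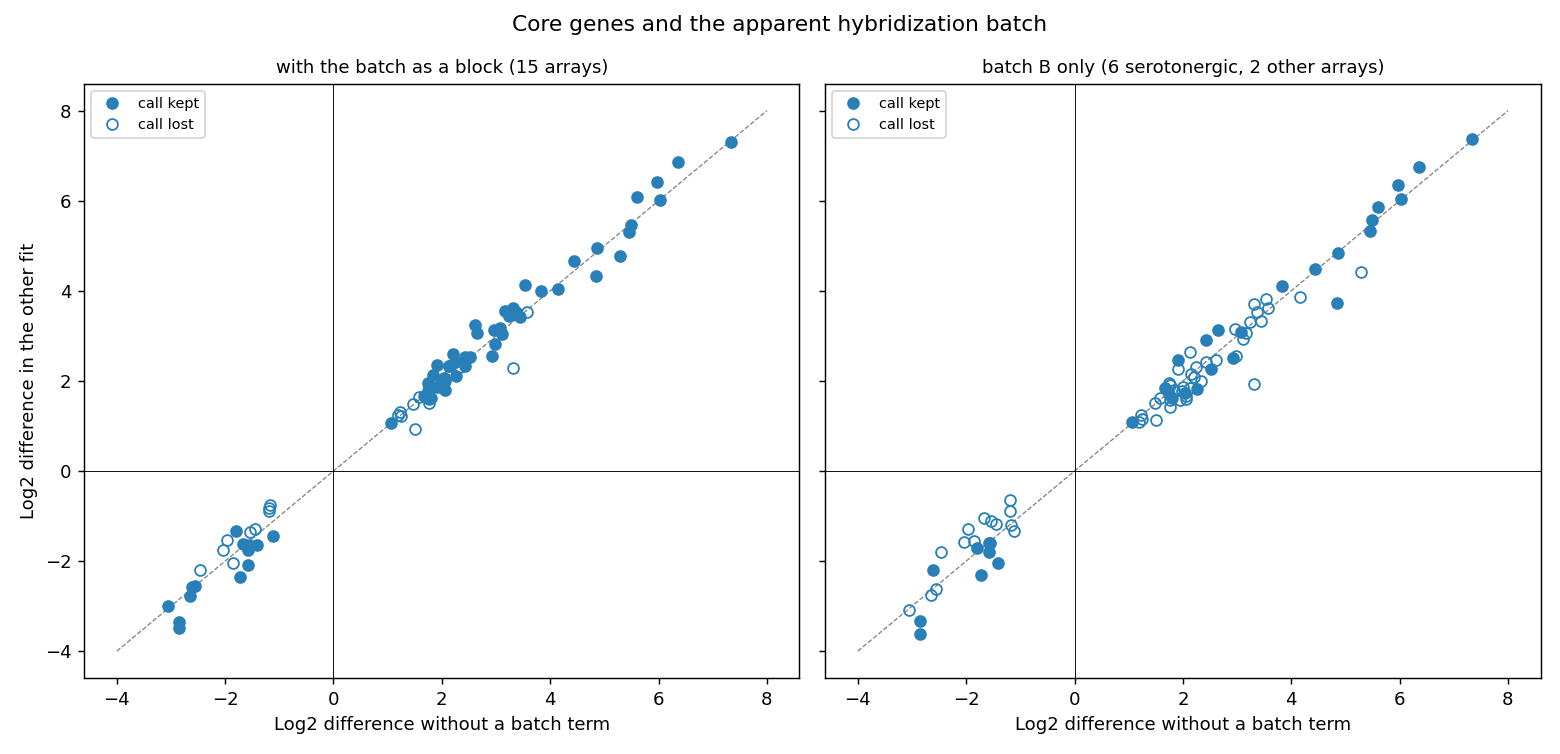
Log2 differences of the 85 core genes, serotonergic minus other groups, with the apparent batch as a block (left) and within batch B alone (right), against the differences without a batch term (x axes). All points keep their sign, which the core rule fixed in advance at the right. Filled points keep their pooled call, 51 higher and 14 lower at the left. At the right most points of both cores are open, since their call was lost.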

How the data were processed

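The deposited values are log2 signals of Affymetrix Mouse 430 2.0 arrays, made by the authors with GCRMA per the submitters' processing notes (version not given in the sources used here) from 2 µg of total RNA and a 3′ IVT Express kit per the labels' protocols. Each of the 45101 probe sets appeared to be centred on its median over 27 arrays, since no more than 13 of the 21 values lay above or below 0 and 79.2% of probe sets held an exact 0. No filter on low signal was therefore possible.

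Probe sets were named through the platform annotation: 34945 had 1 symbol, 932 several, 9160 none and 64 were controls. Each of 18193 genes was read from its most variable probe set (highest SD, 21 arrays). limma 3.58.1 (R 4.3.3) fitted 1 mean per group over 15 arrays (10 residual and 1.1 prior degrees of freedom), and p-values were adjusted over all genes by Benjamini-Hochberg. Data were simulated for the pooled contrast over 18193 genes, with 200 genes changed in each of 3 runs. The noise was normal and independent between arrays, with no batch and no outlying array. Changed genes were drawn from those with a within-group SD above the median. There 76.6% of log2 changes of 1.5, 88.6% of 2 and 97.0% of 3 were recovered, and 0.38% of calls were false. These shares do not cover errors that come from a batch or an outlying array.

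Batches were inferred from the bioC control (limit -1). Replicate numbers were not used as pairs. Across groups, 30 same-numbered pairs had a mean correlation of deviations of 0.03 (-0.34 to 0.39), and 60 pairs of different numbers -0.02. These means do not settle whether numbers share a processing run. In day 14 dopaminergic neurons and motoneurons, replicates 1 and 2 were in batch A and replicate 3 in batch B. The number of arrays limits the precision.

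The members and all 31 gene lists (357 genes, 326 tested) were chosen with earlier results of these data known. The text names the 3 line genes, the tested genes of the 5 serotonin lists, the 15 higher and 10 lower core genes with the largest differences, up to 4 called genes with the largest differences of each other list, up to 8 core genes called between the serotonergic groups and the 5 smallest of the higher core. Genes named beyond that were chosen after their values were seen. Alternatives covered the probe set rule, scaling, array weights, batch and each left-out array or group. Promoters are RefSeq sequences.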

Additional observations from a re-analysis of the deposited data

Results flagged for a closer look

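The direct test between the serotonergic groups, FGF8 minus RA, also called 17 of the 111 named genes called in the pooled contrast. Their pooled difference therefore stands for unequal groups. Over all genes this test called 4.35%. Some of the 17 are core genes named because of this same test, so the count partly follows from the choice of names. Higher under FGF8 were Isl1 (7.20), Tbx20 (5.37), Crabp2 (5.13), Sst (5.01), Lhx1 (3.80), Lmx1a (3.36), En1 (3.19), Ache (2.91), Igsf21 (2.19), C530044C16Rik (1.96), Tbx3 (1.59), Irx3 (1.27) and Aifm3 (1.08), as log2 differences. Lower under FGF8 were Tac1 (-3.05), Aldh1l1 (-2.27), Pde7b (-2.02) and Rgs7bp (-1.18).

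The wild type arrays entered no comparison. For some higher core genes, all 3 arrays of a wild type group lay above all 9 arrays of the other engineered lines. Shox2 averaged 2.56 in the wild type FGF8 group and 2.93 in the wild type RA group. In the wild type RA group Penk averaged 4.45, Gata3 2.50, Rgs7bp 0.95 and Pdzd8 0.22. Over the 62 higher core genes this held for 4 in the wild type FGF8 group and 10 in the wild type RA group.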

How the results depend on the processing

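Of the 111 named genes called, 111 kept their call with trend and robust moderation, 110 with the replicate number as a block, 108 with all 21 arrays and 98 to 108 without each array in turn, but 48 with the batch block and 36 within batch B. Calls in the pooled contrast (975) came to 609 with the mean of all probe sets, 1602 with array weights, whose estimation did not fully converge, 199 at a log2 difference of 2, 259 with the batch block and 176 within batch B. The FGF8 group's 471 calls came to 1777 with weights, 169 at a difference of 2, 171 with the block, 138 within batch B, 190 against day 10 alone and 908 without 2 arrays that stood apart (chosen after seeing the data, as was the day 10 comparison). The RA group's 1711 came to 1132, 480, 753 and 373 with the mean of probe sets, the difference of 2, the block and batch B. The 791 calls between the serotonergic groups came to 1981 with weights, 339 at a difference of 2, 273 within batch B and 335 in day 10 groups. The 62 higher core genes came to 33 at a difference of 2, 36 with the block, 18 within batch B, 136 without the day 14 group, 94 without motoneurons, 118 without the 2 arrays, 115 against day 10 alone and 36 when called in all 6 pairs. The 23 lower genes came to 14 with the mean of probe sets, 5 at a difference of 2 and 5 with the block. They came to 36 without the day 10 group, 60 without the day 14 group and 39 without motoneurons. Without the 2 arrays they came to 129, and in all 6 pairs to 7. Each count is of the genes called under that setting, which need not be among those first called. Of the 94 higher core genes without motoneurons, 53 were among the 62, and of the 115 against day 10 alone, 38 were. Against day 10 alone the lower core held 28 genes, of which 5 were among the 23. The pooled calls there were 898, of which 427 were among the 975. Leaving out each array gave 737 to 1263 pooled calls, 241 to 714 under FGF8, 1196 to 2072 under RA, 487 to 894 between the serotonergic groups, 45 to 117 higher and 9 to 75 lower core genes. Without replicate 1, 2 or 3 of the FGF8 group its calls were 241, 248 and 714, and without replicate 2 those between the serotonergic groups were 487. Without FGF8 replicate 3 the higher core held 117 genes. The lower core held 9, 9 and 60 without FGF8 replicates 1, 2 and 3, 75 without RA replicate 3, 55 and 15 without replicate 1 of day 10 and day 14, and 15 without motoneuron replicate 1. The replicate block gave 978 pooled calls and 63 higher and 20 lower core genes. Against day 10 alone the sign reversed for Lmx1b (-0.038), Nkx6-1 (-0.022), Sim1 (-0.90), Tbx3 (0.23), Chat (0.17), Hoxa4 (0.47), Hoxb9 (0.16), Hoxc8 (0.042), Hoxc6 (0.28), Hoxa7 (0.048) and Cyp26b1 (0.74). Without motoneurons it reversed for Tbx3 (0.30), Chat (0.21), Hoxa4 (0.59), Hoxb9 (0.18), Hoxc8 (0.020), Hoxc6 (0.29), Hoxa7 (0.054), Cyp26a1 (0.013), Cyp26b1 (0.98) and Gli2 (0.010). With probe sets without a name suffix Aldh1l1 (-0.0063) and Aldoc (-0.032) reversed. Where a setting leaves out arrays, fewer samples enter; for the others the cause was not tested.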

Other observations

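Replicate 3 of the FGF8 group was the serotonergic array nearest the others in 31 of the 62 higher core genes, and replicate 3 of the RA group in 19. The FGF8 replicate also had the highest values of its group for the dopaminergic line's Lmx1a (3.23), for Th (3.43), Nr4a2 (2.34) and the peptide gene Cck (4.26), and the lowest for Hoxb3 (-4.75). On the other side, replicate 1 of the day 14 dopaminergic neurons was the nearest array in 18 of the 62 genes. It held 2.48 for Slc6a4, 2.53 for Gchfr, 2.27 for Tph2, 1.98 for Gch1, 1.30 for Cryba2 and 2.48 for Tal1. Their origin was not tested.

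Genes of GABA transmission split the serotonergic groups. Gad1, which makes GABA, had 2.98, 2.76 and 4.03 under FGF8 and -0.76, -1.09 and -0.87 under RA (FGF8 minus RA 4.16 ± 0.84, limma adjusted p = 0.0144). Gad2 had 1.44 to 3.41 under FGF8 and -1.34 to -0.72 under RA (3.14 ± 0.69, adjusted p = 0.0213). The vesicular GABA carrier Slc32a1 had 2.89 to 4.0 under FGF8 and -0.41 to -0.25 under RA (3.63 ± 0.68, adjusted p = 0.01). None of these genes was called in the pooled contrast, with differences of -0.07 to 0.67.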
